A study of Homo sapiens with 12 samples.

Results

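The small RNA of HEK293T cells that received a plasmid with a TRIM9 trigger was set against that of cells that received the GFP control plasmid. All 1153 mature microRNAs (miRNAs) of the deposited count table were taken, in 2 TRIM9 libraries and 2 GFP libraries of the 12 libraries of the series, and 443 of them had enough reads to be tested. HEK293T is a human embryonic kidney line that carries the SV40 large T antigen. In the TRIM9 group the GFP reporter on the plasmid held a trigger from TRIM9 in its 3′ untranslated region. In the GFP group it held none, and 2 further libraries came from cells given a BCL2L11 trigger in the same reporter. These 2 also entered the filter, the scaling and the fit, and so the standard errors and p-values below. Otherwise they served as a second comparison. Cells of every group received 2 µg of plasmid, and small RNA of 18 to 40 nt was sequenced from RNA taken at 48 h. The trigger was expressed from a transfected plasmid on top of whatever the cells make themselves, and the 2 libraries of a group are biological replicates per the series' design text. The comparison asks whether the TRIM9 trigger lowers its miRNA, miR-218, and what it does to the rest of the miRNAs.

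A miRNA guides an Argonaute protein to messenger RNAs that pair with its seed, the bases 2 to 8 from the 5′ end. Most such pairing silences the messenger RNA, but a target that also pairs extensively with the 3′ part of the miRNA can instead cause the miRNA to be destroyed, a process called target-directed miRNA degradation. It acts on the mature strand held in Argonaute, so the other strand of the same hairpin need not change with it, and it is often accompanied by trimming or by the addition of bases at the 3′ end of the miRNA. miR-218 is known from motor neurons and is made from introns of the axon guidance genes SLIT2 and SLIT3.

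The strands that the comparison turns on are shown first, from RefSeq on GRCh38.p14, 5′ to 3′, with the seed in capitals. RefSeq held a sequence for 1031 of the 1153 counted miRNAs and for 397 of the 443 tested. miR-218-5p is the miRNA the trigger is meant for, the miR-218-1-3p and miR-218-2-3p strands lie opposite it in its hairpins, and miR-221-3p and miR-222-3p are the strands the BCL2L11 trigger is meant for.
miR-218-5p: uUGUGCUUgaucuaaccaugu
miR-218-1-3p: aUGGUUCCgucaagcaccaugg
miR-218-2-3p: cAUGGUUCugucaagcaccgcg
miR-221-3p: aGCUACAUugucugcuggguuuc
miR-222-3p: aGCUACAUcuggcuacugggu
The same miR-218-5p comes from chr4:20528299-20528319 on the plus strand, in a hairpin that lies within SLIT2, and from chr5:168768211-168768231 on the minus strand, in a hairpin that lies within SLIT3. Its reads therefore cannot be assigned to either locus. miR-218-5p shares its seed with 0 other mature miRNAs in the RefSeq table, whereas miR-221-3p and miR-222-3p share theirs with each other.

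The TRIM9 libraries held 5304356 and 5361685 miRNA reads, against 5232640 and 5266563 in the GFP libraries, and no 2 of the 6 small RNA libraries held identical counts (0 of 15 pairs). A library of this size puts the limit that a count of 0 allows, 3 reads, at 0.560 to 0.573 CPM over these 4 libraries. CPM are reads of a miRNA scaled to a library of fixed size, and this limit is taken before the scaling factor given below. The TRIM9 libraries differed more from each other than the GFP libraries did in the measures that follow. In the number of miRNAs with a read and in the scaling factor given below, TRIM9 replicate 1 was the highest of these 4 libraries and replicate 2 the lowest. miR-148a-3p took 57.7% and 67.2% of the reads of the TRIM9 libraries, against 57.7% and 61.4% in the GFP libraries, so TRIM9 replicate 2 lay above both GFP libraries. The number of miRNAs with a read was 840 and 745 in the TRIM9 libraries, against 794 and 778 in the GFP libraries. Levels below are CPM scaled by TMM, a factor that sets most miRNAs equal between libraries. That factor was 1.17 and 0.777 in the TRIM9 libraries, against 1.05 and 1.06 in the GFP libraries, and the part these differences play in the results was not tested.

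miR-218-5p was lower in both TRIM9 libraries than in either GFP library, but the difference did not pass the test after adjustment over all miRNAs. It had 74814 and 53775 reads in the TRIM9 libraries, against 94621 and 107515 reads in the GFP libraries. As a share of all miRNA reads these were 1.41% (95% Wilson interval 1.40% to 1.42%) and 1.003% (0.995% to 1.01%) in the TRIM9 libraries, against 1.81% (1.80% to 1.82%) and 2.04% (2.03% to 2.05%) in the GFP libraries. These intervals cover counting error alone, since the reads carry no molecular identifiers, and none of the 4 overlaps another. The spread between libraries of a group is therefore far wider than counting error, and it is what the test uses. The mean level was 12500 ± 568 CPM in TRIM9 cells and 18191 ± 1403 CPM in GFP cells (SD, n = 2 each).

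The fitted log2 fold change of miR-218-5p, TRIM9 over GFP, was -0.54 with a standard error of 0.14. edgeR's quasi-likelihood test gave it an unadjusted p of 0.00476, which ranked 1 among the 443 tested miRNAs, and a Benjamini-Hochberg adjusted p of 0.958. The 95% interval of the fold change ran from -0.86 to -0.22, which places the level in TRIM9 cells between 54.9% and 85.9% of that in GFP cells. In the BCL2L11 libraries, which carry the same reporter with the other trigger, miR-218-5p stood at 19829 and 20779 CPM. With TMM this was above every TRIM9 and GFP library. As a share of all miRNA reads the BCL2L11 libraries held 2.12% and 1.91%, above both TRIM9 libraries. These shares overlapped those of the GFP libraries, at 1.81% and 2.04%.

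**Figure D1:**
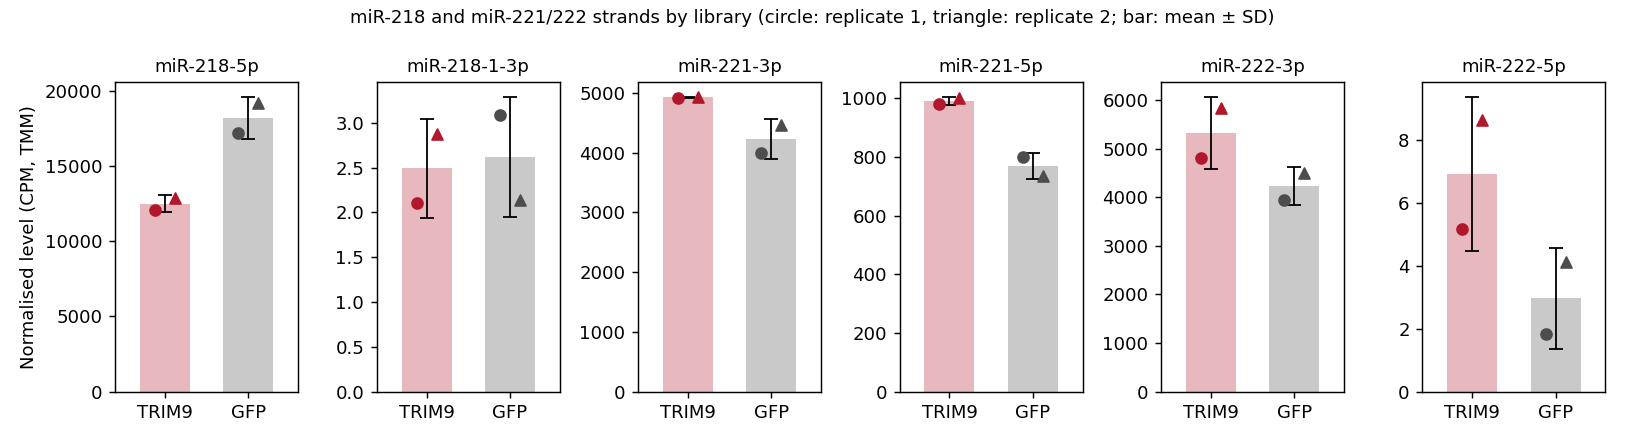
Normalised level (CPM scaled by TMM, axis from 0) of the miR-218 and miR-221/222 strands in each library, TRIM9 left of GFP; circles are replicate 1, triangles replicate 2, bars the mean and whiskers the SD of 2 libraries. The TRIM9 libraries lie below both GFP libraries for miR-218-5p and above both for all 4 miR-221/222 strands, and the groups overlap for miR-218-1-3p.

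No other abundant miRNA was as clearly separated downwards. Of 124 miRNAs with a mean of at least 100 CPM, 14 (11.3%) were lower and 13 (10.5%) were higher in both TRIM9 libraries than in both GFP libraries. The gap between the higher TRIM9 library and the lower GFP library was -0.41 on the log2 scale for miR-218-5p, the widest of the 14. It was -0.30 for miR-3615, -0.22 for miR-7706 and -0.18 for miR-19b-3p, a member of the miR-17-92 cluster. Among the 13 higher miRNAs the widest gaps were 0.30 for miR-221-5p and 0.24 for miR-629-5p. miR-218-5p also had the lowest fold change of the 124, next to -0.47 for miR-19b-3p, and of the 44 miRNAs with at least 1000 CPM the next lowest was -0.28, for miR-548o-3p. The rank was looked up after the trigger was known, so it describes these libraries and was given no test.

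**Figure D2:**
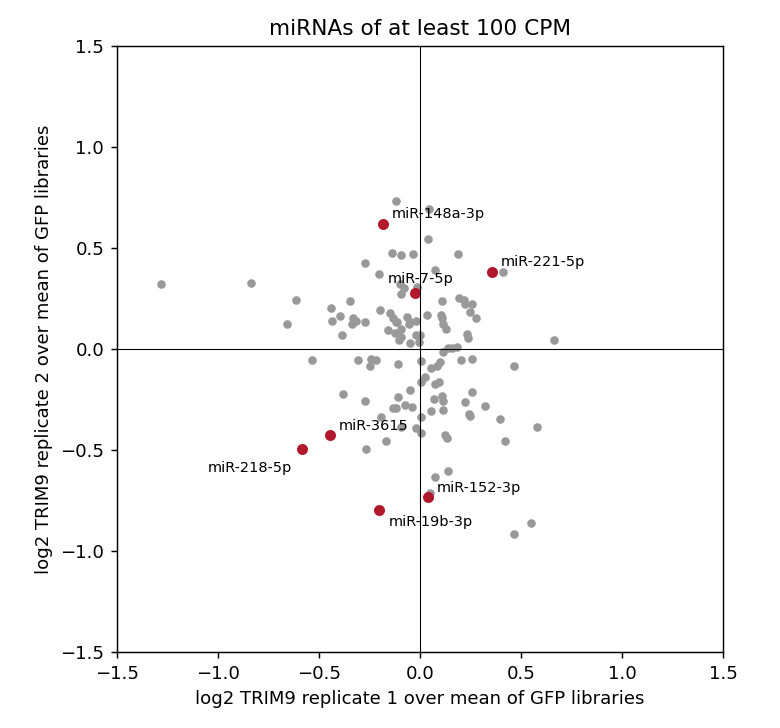
Log2 level in TRIM9 replicate 1 (x axis) and TRIM9 replicate 2 (y axis), each over the mean of the 2 GFP libraries, for the 124 miRNAs with a mean of at least 100 CPM; 1 point is 1 miRNA. miR-218-5p and miR-3615 lie low on both axes, whereas miR-148a-3p and miR-19b-3p differ between the TRIM9 libraries.

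Ratios between miRNAs of the same library need no scaling, and they placed miR-218-5p lower in the same libraries. Its ratio to the geometric mean of the other 43 miRNAs of at least 1000 CPM was 3.50 and 3.42 in the TRIM9 libraries, against 4.73 and 5.49 in the GFP libraries. The difference was -0.56 on the log2 scale, with a two-sided exact permutation p of 0.333, the smallest that 2 against 2 libraries can give. Set against each of the 43 in turn, its ratio was lower in both TRIM9 libraries than in both GFP libraries for 37 of them and higher for 0. The same count was 27 for miR-548o-3p, 22 for miR-21-5p and 11 for miR-103a-3p, with a median of 3 over the 44 miRNAs. Against the miRNAs that dominate the libraries the pattern was the same: per read of miR-10a-5p there were 0.440 and 0.351 reads of miR-218-5p in the TRIM9 libraries, against 0.568 and 0.669 in the GFP libraries. Per 100 reads of miR-148a-3p there were 2.44 and 1.49 in the TRIM9 libraries, against 3.13 and 3.33 in the GFP libraries. The 43 ratios share the miR-218-5p reads and are not independent of each other.

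The opposite strand could not be resolved at this depth. miR-218-1-3p had 13 and 12 reads in the TRIM9 libraries, against 17 and 12 reads in the GFP libraries, and its groups overlapped. Its log2 fold change was -0.09 with a standard error of 0.54 (edgeR, unadjusted p 0.874), an error that holds the change of miR-218-5p within it. There were 5755 and 4481 reads of miR-218-5p per read of miR-218-1-3p in the TRIM9 libraries, against 5566 and 8960 in the GFP libraries. The groups overlapped in this ratio, with a log2 difference of -0.48 and an exact permutation p of 0.667. miR-218-2-3p had no entry in the table used here.

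Over all miRNAs no change passed. With edgeR's quasi-likelihood test 0 of 443 miRNAs (0%) had an adjusted p under 0.05, and 20 (4.51%) had an unadjusted p under 0.05, of which 10 (2.26%) were higher and 10 (2.26%) lower in TRIM9 cells. The authors' deposited table of the same comparison also called 0 of 1153 (0%) after adjustment and held 10 (0.867%) with an unadjusted p under 0.05. Of the 443, 134 (30.2%) had groups that did not overlap. In 64 (14.4%) both TRIM9 libraries lay above both GFP libraries, and in 70 (15.8%) both lay below. The median fold change of all tested miRNAs was 0.01 with TMM and -0.11 when libraries were scaled by total reads, and the 2 counts then became 35 (7.9%) above and 80 (18.1%) below. Fold changes below are therefore read relative to that median. The scatter depended on the level: the quartiles of the fold changes ran from -0.40 to 0.49 among the 171 miRNAs under 10 CPM and from -0.07 to 0.13 among the 44 of at least 1000 CPM. The median standard error was 0.52 in the low class and 0.17 in the high class, and 12 of the 20 miRNAs with an unadjusted p under 0.05 lay under 10 CPM.

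**Figure D3:**
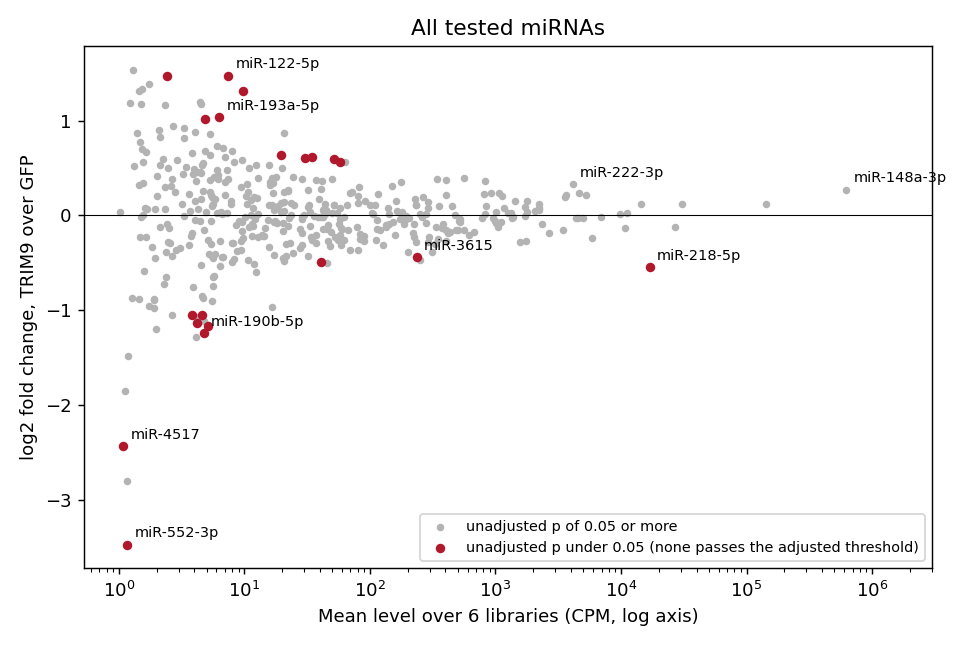
Log2 fold change, TRIM9 over GFP (y axis), against the mean level over 6 libraries (x axis, CPM, log axis) for the 443 tested miRNAs; red points have an unadjusted p under 0.05. The scatter narrows from left to right, most red points lie under 100 CPM, and miR-218-5p is the red point of highest level.

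Sequences are printed next for the miRNAs that follow miR-218-5p in order of p, and for miR-3615, the other miRNA of at least 100 CPM with an unadjusted p under 0.05. The capitals again mark the seed.
miR-122-5p: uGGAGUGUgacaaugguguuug
miR-193a-5p: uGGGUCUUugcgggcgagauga
miR-552-3p: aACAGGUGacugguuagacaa
miR-190b-5p: uGAUAUGUuugauauuggguug
miR-92a-1-5p: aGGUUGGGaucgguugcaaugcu
miR-4517: aAAUAUGAugaaacucacagcugag
miR-3615: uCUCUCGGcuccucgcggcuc
No 2 of them share a seed with each other, and none has that of miR-218-5p. On GRCh38.p14 miR-122-5p lies at chr18:58451088-58451109 and miR-3615 at chr17:74748663-74748683, both on the plus strand.

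Among the 12 miRNAs of lowest p in the higher direction, none passed after adjustment. miR-122-5p, the most abundant miRNA of liver cells, had 92 and 40 reads in the TRIM9 libraries, against 28 and 21 reads in the GFP libraries. Its log2 fold change was 1.48 with a standard error of 0.39 (edgeR, unadjusted p 0.00547). miR-193a-5p had 58 and 35 reads in the TRIM9 libraries, against 25 and 23 reads in the GFP libraries, a log2 fold change of 1.04 with a standard error of 0.34. The groups did not overlap for either, but both rest on fewer than 100 reads a library. miR-92a-1-5p, the minor strand of a miR-17-92 hairpin, had 58.5 and 67.9 CPM in the TRIM9 libraries, against 44.4 and 39.4 CPM in the GFP libraries. The major strand of that hairpin, miR-92a-3p, which also comes from a further hairpin, had a log2 fold change of 0.13 and overlapping groups. miR-455-3p had 24.6 and 25.7 CPM in the TRIM9 libraries, against 15.8 and 16.4 CPM in the GFP libraries, while its opposite strand miR-455-5p had a log2 fold change of -0.03. miR-301a-5p had a log2 fold change of 0.62 and its opposite strand miR-301a-3p one of -0.89, on 3 to 15 reads a library. The others were miR-30b-3p (1.02), miR-320b (1.32), miR-328-3p (0.61), miR-378c (0.57), miR-1257 (1.47), miR-222-5p and miR-221-5p. miR-378a-3p, which has the seed of miR-378c, had a log2 fold change of -0.03. Reads of miR-320b and miR-378c are uncertain, since near-identical family members can share them.

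The 12 miRNAs of lowest p in the lower direction were, apart from miR-218-5p, of low or middle level. miR-552-3p had 2 and 0 reads in the TRIM9 libraries, against 12 and 14 reads in the GFP libraries. Per library size the summed ratio was 0.0825, with an exact 95% counting interval of 0.00949 to 0.330. miR-4517 had 3 and 1 reads in the TRIM9 libraries, against 14 and 10 in the GFP libraries, a ratio of 0.179 with an interval of 0.0451 to 0.520. These intervals cover counting error and leave out the spread between libraries, and neither miRNA passed after adjustment. miR-190b-5p had 19 and 9 reads in the TRIM9 libraries, against 35 and 35 in the GFP libraries, while miR-190a-5p, with the same seed, had a log2 fold change of -0.30 and overlapping groups. miR-3615 is made without the nuclear enzyme Drosha. It had 187 and 189 CPM in the TRIM9 libraries, against 277 and 233 CPM in the GFP libraries. Its log2 fold change was -0.44 with a standard error of 0.18 (edgeR, unadjusted p 0.0405). miR-181a-3p had 33.8 and 33.8 CPM in the TRIM9 libraries, against 44.4 and 50.7 CPM in the GFP libraries, and its opposite strand miR-181a-5p, the main strand, had a log2 fold change of -0.13. The others were miR-580-3p (-1.05), miR-4677-5p (-1.05), miR-5699-3p (-1.16), miR-5010-3p (-1.14), miR-3180-5p (-1.28) and miR-152-5p (-0.90).

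The miR-221/222 strands were higher in the TRIM9 libraries, all 4 without overlap, against 14.4% of all tested miRNAs. None passed the test. miR-221-3p had 4918 and 4928 CPM in the TRIM9 libraries, against 3993 and 4459 CPM in the GFP libraries, and a log2 fold change of 0.22 with a standard error of 0.15. miR-222-3p had 4806 and 5847 CPM in the TRIM9 libraries, against 3948 and 4500 CPM in the GFP libraries, and a log2 fold change of 0.33 with a standard error of 0.18. The minor strands followed the same order, and the 4 strands come from neighbouring hairpins on the X chromosome. miR-221-5p had 981 and 1000 CPM in the TRIM9 libraries, against 799 and 736 CPM in the GFP libraries, a log2 fold change of 0.37 (edgeR, unadjusted p 0.0519). miR-222-5p had 32 and 36 reads in the TRIM9 libraries, against 10 and 23 reads in the GFP libraries, a log2 fold change of 1.20 (unadjusted p 0.0513). The median of the 4 was 0.35 with TMM and 0.21 with total reads. Per total reads the groups stayed apart for miR-222-5p and overlapped for the other 3.

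The other 9 of the 10 most abundant miRNAs lay close to the median. Their log2 fold changes ran from -0.13 for miR-21-5p to 0.27 for miR-148a-3p, and for 8 of them the sign changed in at least 1 alternative setting. miR-7-5p, which a long noncoding RNA degrades in other cells, had 134855 and 166154 CPM in the TRIM9 libraries, against 153818 and 122518 CPM in the GFP libraries, with overlapping groups. miR-148a-3p had 494904 and 864867 CPM in the TRIM9 libraries, against 548874 and 576776 CPM in the GFP libraries. Here the TRIM9 libraries lay on either side of the GFP libraries, the higher being replicate 2.

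No list of related miRNAs held a member that passed, and list medians are given beside the median of 0.01 over all 443. Of 15 miRNAs linked to directed degradation in other cells, with the miR-148a and miR-152 strands added, 13 were tested and their median was 0.01. In 1 of them, miR-27a-3p, both TRIM9 libraries lay above both GFP libraries, and in 0 both lay below. Over all tested miRNAs such separation was seen in 14.4% above and 15.8% below, and this is the background of the counts for the lists that follow. The let-7 family had a median of -0.01 over 9 miRNAs, with 0 separated in either direction, and let-7e-5p had the lowest p in it at a log2 fold change of 0.20. The miR-10, miR-99, miR-100 and miR-125 miRNAs had a median of 0.01 over 7, with 2 separated, both lower: miR-125b-5p at -0.43 and miR-125a-5p at -0.31. The miR-17-92 and related clusters, which promote proliferation, had a median of -0.16 over 10. There miR-19b-3p had 252 and 167 CPM in the TRIM9 libraries, against 293 and 286 CPM in the GFP libraries (log2 fold change -0.47, standard error 0.22), and was the sole member separated. Its lower TRIM9 library was replicate 2. miRNAs induced by p53 had a median of 0.01 over 6, with 1 separated, miR-215-5p at 0.31. Those of inflammation and hypoxia had a median of 0.11 over 7. Of these miR-210-3p, the main hypoxia miRNA, was separated with TMM at 0.50 with a standard error of 0.34. It had 170 and 102 reads in the TRIM9 libraries, against 68 and 137 reads in the GFP libraries. In reads GFP replicate 2 thus lay above TRIM9 replicate 2, and the separation rests on the scaling. miR-21-5p at -0.13 and miR-146b-5p at -0.09 were separated in the lower direction. Drosha-independent miRNAs had a median of -0.03 over 5, with 1 separated in each direction, from -0.44 for miR-3615 to 1.31 for miR-1226-3p, which had 4 to 12 reads a library, and miR-320a-3p stood at -0.03.

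miRNAs typical of other cell types were looked at as a check on the cells. Of 8 miRNAs of pluripotent cells 0 were tested, and their summed level was 1.78 and 1.20 CPM in the TRIM9 libraries, against 1.45 and 1.96 CPM in the GFP libraries. Muscle miRNAs summed to 19.6 and 16.8 CPM in the TRIM9 libraries, against 21.6 and 21.4 CPM in the GFP libraries. There miR-499a-5p had a log2 fold change of -0.40 and miR-1-3p one of -0.21 with a standard error of 0.27. miR-1-3p had 83 and 57 reads in the TRIM9 libraries, against 96 and 78 reads in the GFP libraries. It was separated with TMM, but its reads overlapped. Epithelial miRNAs summed to 42.0 and 36.0 CPM in the TRIM9 libraries, against 37.8 and 41.6 CPM in the GFP libraries. Of the 3 tested, none separated, miR-200b-3p stood at 0.49 on 47 and 8 reads in the TRIM9 libraries, against 17 and 22 in the GFP libraries, miR-200a-3p at -0.00 and miR-200c-3p at -0.15. Nervous system miRNAs had a median of 0.03 over 6, from -0.22 to 0.19 for miR-128-3p, with 0 separated. Liver and gut miRNAs had one of 0.17 over 4, with miR-122-5p at 1.48 and miR-215-5p at 0.31 both separated higher. The groups overlapped for miR-192-5p at 0.02 and miR-194-5p at -0.22. Fibroblast and endothelial miRNAs had one of 0.23 over 4. There miR-199a-5p, on 7 to 16 reads a library, was separated at 0.83. miR-126-5p at 0.50, miR-126-3p at -0.03 and miR-143-3p at -0.14 overlapped. Blood cell miRNAs were the least even. Their sum was 998 and 2895 CPM in the TRIM9 libraries, against 2210 and 2426 CPM in the GFP libraries. Nearly all of it was miR-451a, the miRNA of red blood cells, at 899 and 2732 CPM in the TRIM9 libraries, against 2078 and 2298 CPM in the GFP libraries. The TRIM9 libraries thus held both the lowest and the highest level of miR-451a of the 4, and its part in other results was not tested.

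**Figure D4:**
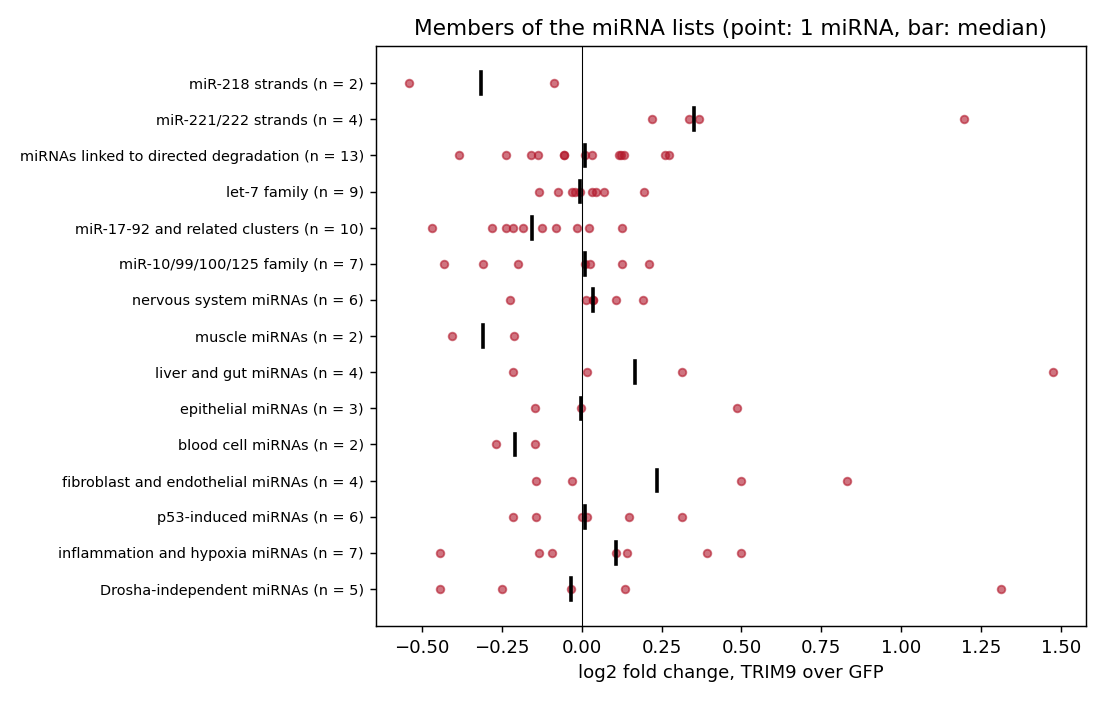
Log2 fold change, TRIM9 over GFP (x axis), of the tested members of each miRNA list (rows, with the number tested); 1 point is 1 miRNA and the black bar is the list's median. Most medians lie near 0, the miR-221/222 strands lie right of 0 and both miR-218 strands left of it.

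Over 397 tested miRNAs with a RefSeq sequence the correlation of log2 fold change with GC content was 0.05, a description over miRNAs that share their libraries. The median was -0.02 for the 163 strands from the 3′ arm 0.03 for the 174 from the 5′ arm and -0.09 for the 60 whose name gives no arm. miR-218-5p has 21 bases and a GC content of 38.1%, and the 63 tested miRNAs of 21 bases had a median of 0.07. The median was 0.01 for the 235 of 22 bases and -0.03 for the 71 of 23 bases. The small classes lay further out, at -0.30 for 12 miRNAs of 24 bases and at 0.41 for 6 of 25 bases. Of the 12, 0 were separated higher and 5 lower, and of the 6, 3 higher and 2 lower. Over all 443 tested miRNAs 14.4% were separated higher and 15.8% lower. These medians and counts were not tested.

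Of the 710 miRNAs left untested for low counts, 91 had no read in these 4 libraries. In 18 both TRIM9 libraries and neither GFP library had a read, and in 20 the reverse held. 2 untested miRNAs reached 20 reads in some library, and they are named after their values were seen. miR-150-5p, a lymphocyte miRNA, had 158 and 2 reads in the TRIM9 libraries, against 0 and 1 in the GFP libraries, so a single TRIM9 library held nearly all of them. miR-127-3p had 23 and 8 reads in the TRIM9 libraries, against 0 and 1 in the GFP libraries.

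In the deposited isoform table of the same comparison miR-218-5p was higher in TRIM9 cells, and it was the sole entry that passed. The sources used here do not say what its values count. Its header does not name the direction of its fold change, which is taken as TRIM9 over GFP because the authors' read table runs that way (r = 0.999 with the fold changes above, over miRNAs). miR-150-5p and miR-127-3p, whose reads lay mostly in the TRIM9 libraries, have positive log2 fold changes of 4.01 and 1.74 in the authors' deposited table of isoforms. They were picked after their values were seen, and 1 library held nearly all miR-150-5p reads, so they do not settle the direction. Over entries with a mean of at least 20, without miR-218-5p, the authors' isoform and read fold changes correlated at r = 0.29. The direction itself was not tested. In the authors' deposited table of isoforms miR-218-5p rose, with a log2 fold change of 2.55, a standard error of 0.08, an unadjusted p of 4.34e-250 and an adjusted p of 5.77e-247. In the authors' deposited table this was 1 of 1329 entries (0.0752%) with an adjusted p under 0.05, and 2 (0.15%) had an unadjusted p under 0.05. The other was miR-222-3p, at 0.18 with a standard error of 0.09 and an unadjusted p of 0.0479 in the authors' deposited table.

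Averaged over the libraries of all groups, the isoform signal of miR-218-5p was the largest of any entry. In the authors' deposited table this mean was 939, against 570 for miR-222-3p, 510 for miR-7-5p, 372 for miR-92a-3p and 344 for miR-221-3p. Among the 159 entries of the authors' deposited table with a mean of at least 20, the log2 fold changes other than that of miR-218-5p ran from -0.40 to 0.65, with a median of 0.00. miR-148a-3p, by far the most abundant miRNA in reads, had a mean of 206 and a log2 fold change of 0.05 in the authors' deposited table. miR-218-1-3p had a log2 fold change of 0.41 with a standard error of 0.85 there. The strands miR-221-3p and miR-221-5p stood at 0.07 and 0.25 in the authors' deposited table.

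The group means behind that fold change were worked out from the authors' deposited mean over 6 libraries and the deposited fold changes of both triggers. For miR-218-5p they came to an isoform signal of 2097 in TRIM9 cells, 361 in BCL2L11 cells and 358 in GFP cells, 5.86-fold higher in TRIM9 cells than in GFP cells. The same calculation on the authors' deposited read tables missed the actual normalised means by a median of 0.0311% and at most 0.543% over 226 miRNAs, and for isoforms it assumes that the table was made in the same way. Were the deposited fold change GFP over TRIM9, the same calculation would give 221 in TRIM9 cells, 1303 in BCL2L11 cells and 1292 in GFP cells. In the direction taken, the implied means for miR-7-5p were 514 in TRIM9 cells, 509 in BCL2L11 cells and 507 in GFP cells. For miR-222-3p they were 458 in TRIM9 cells, 847 in BCL2L11 cells and 404 in GFP cells. For miR-221-3p they were 207 in TRIM9 cells, 628 in BCL2L11 cells and 198 in GFP cells. The pooled rank of miR-218-5p rests on the TRIM9 group: in GFP cells its implied mean of 358 lay below those of miR-7-5p, miR-222-3p and miR-92a-3p, the last at 382.

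Isoform signal rose with reads across entries (Spearman 0.92 over the 1099 found in both deposited tables, a description), but less than in proportion. Over these 1099 entries the mean isoform signal per 100 mean reads had a median of 110 for miRNAs under 1 read, 22.6 for 10 to 100 reads, 1.91 for 1000 to 10000 reads and 0.0933 for 100000 reads or more. It exceeded 100 for 371 entries, so the signal cannot be read as a share of the reads in the count table. The value was 1.05 for miR-218-5p, against a median of 0.486 in its class of 10000 to 100000 reads, 2.63 for miR-222-3p, 1.78 for miR-221-3p, 0.0675 for miR-7-5p and 0.00627 for miR-148a-3p. With TRIM9 over GFP as the direction, the implied isoform signal of miR-218-5p per 100 normalised reads of its group was 3.20 in TRIM9 cells and 0.374 in GFP cells. Both the rise in signal and the lower reads enter this contrast, and whether the signal counts distinct sequences or reads is not given. Of the 1329 entries 230 had no match in the count table, and 35 of these named more than 1 miRNA.

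**Figure D5:**
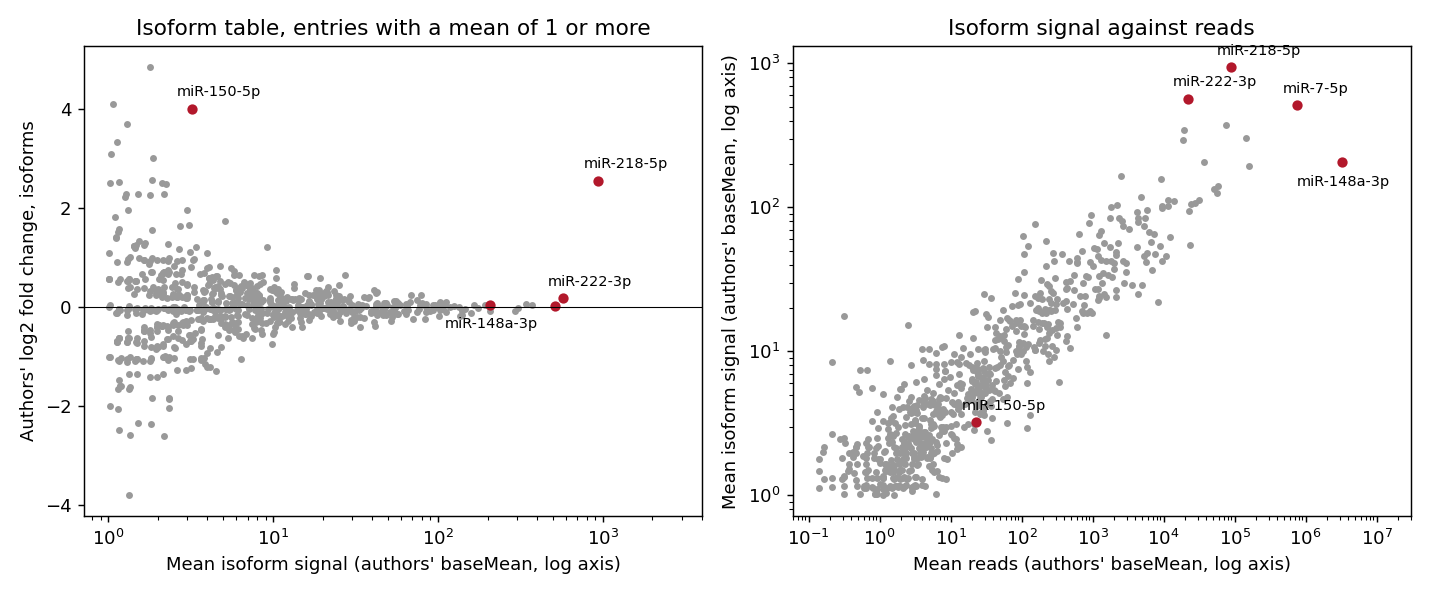
Left, the authors' log2 fold change against their mean isoform signal (x axis, log axis) for entries with a mean of at least 1; right, mean isoform signal against mean reads for the same entries where reads were found (both log axes). miR-218-5p, at a mean of 939 and a log2 fold change of 2.55, lies apart from every other entry of high signal on the left, and miR-148a-3p lies low for its reads on the right.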

How the data were processed

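The deposited table holds whole, raw counts of reads for each mature miRNA and library. The authors' deposited result tables for reads and isoforms hold, per the file headers, baseMean (a normalised signal averaged over libraries), its log10 in some, a log2 fold change with standard error and statistic (each a score), and a p-value before and after adjustment. The submitters' processing notes name DESeq2 1.20.0, StringTie 2.1.3, STAR, cutadapt 3.4 and hg38, without the step each served. The miRNA annotation is not stated.

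Counts of all 6 small RNA libraries entered a quasi-likelihood fit with group as the sole term (edgeR 4.0.16 in R 4.3.3; filterByExpr, TMM, glmQLFit and glmQLFTest), tested two-sided and adjusted by Benjamini-Hochberg over 443 miRNAs at 0.05. The fit shares the spread over miRNAs, because p = 0.333 is the smallest an exact comparison of 2 libraries with 2 can give. Depth was 5018875 to 6091151 reads a library. The fit was tested on simulated data. Named miRNAs are the miR-218 and miR-221/222 strands, the 12 of lowest p in each direction, the member of lowest p of each list and the 10 most abundant; miRNAs singled out by their gap, ratio or isoform value were chosen after their values were seen. The members and lists were chosen with earlier results of these data known. Alternatives were DESeq2's size factors, upper quartile and total counts, no filter or a minimum of 100 counts in 2 libraries, DESeq2 1.42.0, TRIM9 and GFP alone, a replicate block, BCL2L11 as control, and leaving out each library. Group means of isoforms were solved from baseMean and both triggers' fold changes. The poly-A libraries were not analysed here.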

Additional observations from a re-analysis of the deposited data

How the results depend on the processing

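miR-218-5p was lower in TRIM9 cells under all 15 alternatives, with log2 fold changes from -0.70 to -0.49. The lowest came with BCL2L11 as control, and against GFP the lowest was -0.67, with library totals. Alternatives that did not leave out a single library gave adjusted p from 0.158 to 0.999, and it passed under 0 of them. The 0.158 also came with BCL2L11 as control. Without each library in turn the log2 fold change ran from -0.64 to -0.49. The count with an adjusted p under 0.05 was 0, and 1 without the filter (miR-150-5p) and 1 with BCL2L11 libraries as control (miR-221-3p, log2 1.38, the miRNA that trigger is meant for). At an unadjusted p under 0.05 the 10 higher miRNAs became 1 with library totals, 20 without the filter, 5 in DESeq2 and 4 with TRIM9 and GFP libraries alone, and 7 to 20 without each library. The 10 lower became 21 without the filter, 2 with at least 100 counts, 4 in DESeq2, 5 with BCL2L11 as control, and 7 to 16 without each library. The highest counts, 20 and 16, came without TRIM9 replicate 1. With BCL2L11 as control the log2 ratio of miR-218-5p was -0.97 to miR-218-1-3p and -0.77 to the geometric mean, and the direction turned for miR-218-1-3p (0.22), miR-580-3p (0.23), miR-1-3p (0.11), miR-451a (0.50) and miR-215-5p (-0.39). Of the 24 miRNAs named for a low p, 7 kept their direction but had a log2 fold change that itself moved by over 1.5 times without some library. These were miR-320b (0.75 to 2.14), miR-1257 (0.96 to 2.14), miR-222-5p (0.71 to 1.87), miR-378c (0.35 to 0.76), miR-301a-5p (0.31 to 0.93), miR-552-3p (-6.63 to -2.79) and miR-5010-3p (-1.61 to -0.54). Without each library miR-218-1-3p ran from -0.36 to 0.18, miR-148a-3p from -0.20 to 0.60, let-7e-5p from -0.12 to 0.44, miR-128-3p from -0.16 to 0.45, miR-200b-3p from -0.88 to 1.09 and miR-451a from -1.30 to 0.30. The cause was not tested. With a replicate block, 17 were higher and 18 lower at an unadjusted p under 0.05, and miR-218-5p had an adjusted p of 0.162. The labels give no pairing, and the groups' deviations by library number correlated at 0.19 to 0.36 over 443 miRNAs. Depth limits miR-218-1-3p, which has at most 17 reads.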
